A study of Mus musculus with 6 samples.

Results

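The cytosolic ribosomal protein genes were examined in RNA-seq libraries of PM (primary microglia). They were taken by symbol, as every gene named Rpl or Rps with a number, with or without a final a, l or x, and in addition Rpsa, Rplp0, Rplp1 and Rplp2. This rule found 81 genes among 24411 in the count tables, 32 of the small and 49 of the large ribosomal subunit, and used no measured value. Of these, 74 had enough counts to be tested (31 small and 43 large subunit genes), and 7 did not. Rps4l, among those tested, is typed by GENCODE M21 as a transcribed processed pseudogene without a coding sequence.

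Whole brains of 12 ICR mice aged 3 days were pooled and grown as mixed glial cultures, and the PM were shaken off these, so other glial cells can be present. Both groups carried GSK-J4 (10 μM), an inhibitor of the H3K27 demethylase JMJD3. One group of 3 libraries had GSK-J4 alone, and the other group of 3 libraries had GSK-J4 together with bacterial lipopolysaccharide (LPS, 10 ng/ml), both at 4 h. The comparison therefore asked how ribosomal protein mRNAs differed between PM with and without LPS when GSK-J4 was present in both. Untreated and LPS-only libraries were not analysed here.

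Ribosomal proteins are made in the cytosol, imported into the nucleolus and assembled there with ribosomal RNA into the small subunit, which decodes the mRNA, and the large subunit, which joins amino acids. Their mRNAs are short and abundant, and growing cells keep them in near-equal supply. Most of them begin with a run of pyrimidines, the terminal oligopyrimidine tract, through which the kinase mTOR and the protein LARP1 control their translation. A change in their translation does not have to show in the amount of mRNA, which is what RNA-seq measured.

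The sequences at the annotated start are shown because this tract is the feature that the gene family is best known for. RefSeq promoters (GRCm38.p6) were at hand for 60 of the 81 genes, with 72 annotated starts. Each window below runs 5′ to 3′ from 10 bases before the annotated start to the 20th base from it, and capitals mark a C followed by at least 4 pyrimidines whose C lies within 10 bases of the start. The first 4 hold such a run and the last 3, which have none at the annotated start, belong to the genes that passed the test between the groups. Genes that did not pass, such as Rplp0, Rpsa, Rpl5 and Rps3, had no such run either, and a relation between runs and changes was not tested.
Rps6 (chr4:86857348-86857377, minus strand): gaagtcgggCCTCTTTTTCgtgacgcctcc
Rplp2 (chr7:141447641-141447670, plus strand): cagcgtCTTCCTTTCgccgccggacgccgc
Rpl38 (chr11:114668570-114668599, plus strand): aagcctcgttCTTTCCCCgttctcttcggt
Rpl13a (chr7:45128726-45128755, minus strand): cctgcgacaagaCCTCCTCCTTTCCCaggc
Rpl13 (chr8:123102340-123102369, plus strand): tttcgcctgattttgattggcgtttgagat
Rpl24 (chr16:55966265-55966294, plus strand): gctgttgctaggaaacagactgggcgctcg
Rps13 (chr7:116334171-116334200, minus strand): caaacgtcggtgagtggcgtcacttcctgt

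A run of this kind lay within 10 bases of an annotated start in 38 of the 60 genes (63.3%), against 34.4% of 27025 genes in the same promoter table. An annotated start can differ by some bases from the one used in PM, and a window without capitals says only that no such run began within 10 bases of the annotated start, as in Rps13, whose run of pyrimidines begins further on. Within 5 bases the count was 28 of 60 (46.7%, against 21.2% of all genes), and within 20 bases it was 50 of 60 (83.3%, against 53.3%). A pair of further motifs was searched on both strands of the 300 bases around each start, after the data had been seen. The motif CCGGAAG, read by ETS family factors, lay in 25 of the 60 genes (41.7%) and in 9.93% of all genes, and AAGATGGC, read by YY1, lay in 5 of the 60 (8.33%) and in 3.19% of all genes. Overlapping matches of these 2 motifs were each counted.

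Between 2597505 and 3472716 counts per library fell on genes, and the members held between 41830 and 68118 of them. The ribosomal RNA precursor Rn45s took 22.2 to 32.4% of the counts with GSK-J4 alone and 45.8 to 48.1% in LPS + GSK-J4, so levels are given as CPM (counts per 1000000 counts on genes, scaled by edgeR's TMM factors), in which 3 counts in a library equal 0.670 to 1.23 CPM. Such values cover counting error only. The microglial identity of the libraries was checked with 10 marker genes, all detected, whose summed level was 3438 to 3598 CPM with GSK-J4 alone and 2746 to 2907 CPM with LPS + GSK-J4. In bulk RNA, fewer cells of a type and less RNA per cell cannot be told apart.

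Ribosomal protein mRNAs differed little between the groups. At an adjusted p of at most 0.05 in edgeR's quasi-likelihood test, 3 of the 74 tested genes rose with LPS + GSK-J4 (Rpl13, Rpl24 and Rps13) and 0 fell, whereas 13.7% of the 10133 genes tested rose and 9.91% fell. By the same test, 0 of the 74 reached the study's thresholds (adjusted p of 0.01 or less, with a log2 fold change of 1.5 or more in either direction), which 3.76% of all tested genes did. The 74 log2 fold changes lay between -0.24 (Rps15a) and 0.43 (Rpl13), with a median of 0.14, and 60 were above 0. Over all tested genes the median was -0.00058. The count of members that rose depended on the model. With the replicate number as a block, 21 of the 74 rose and 0 fell, against 17.3 and 14.8% of all genes, though the numbers were not taken to pair the libraries.

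Every one of the 74 had a log2 fold change smaller than 0.5 in either direction, as did 67.6% of all tested genes. The whole 95% interval lay between -0.5 and 0.5 in 50 of the 74 genes, against 15.3% of all tested genes. It lay between -1 and 1 in 73 of the 74, the exception being Rps4l, a gene with few counts. These narrow intervals go with high counts, since the median level of the members lay above that of 95.7% of the tested genes and the median SE of their log2 fold change was 0.12, against 0.22 over all genes. The medians of the subunits lay close together, with a log2 fold change of 0.15 for the 31 small subunit genes and 0.14 for the 43 large subunit genes.

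**Figure D1:**
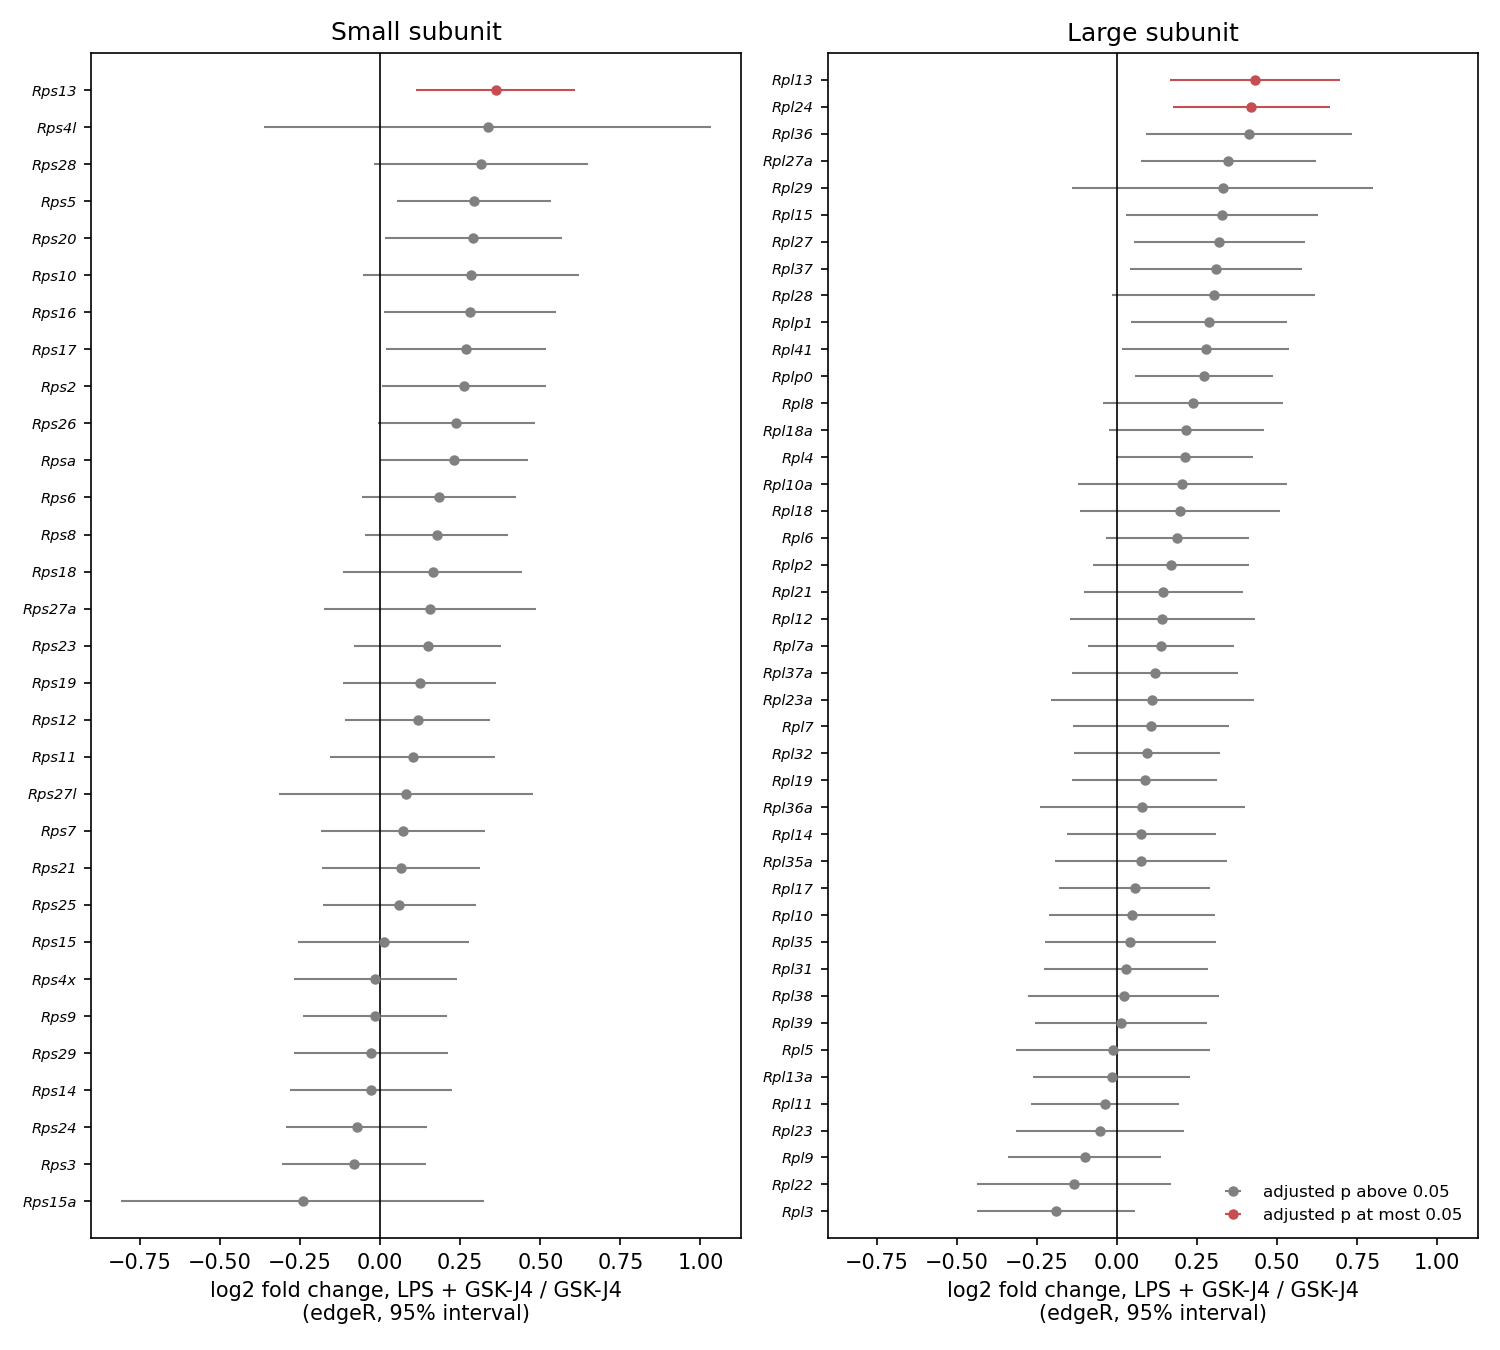
Log2 fold change of LPS + GSK-J4 over GSK-J4 for the 31 small subunit and 43 large subunit genes tested, ordered by value, with points for the edgeR estimate and bars for its 95% interval; red marks an adjusted p of at most 0.05. The points span -0.24 to 0.43, most lie to the right of 0, and Rpl13, Rpl24 and Rps13 are the 3 in red.

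All libraries with LPS stood above all those without it in 21 of the 74 genes, against 19.8% of all tested genes, and in 1 gene (Rps24) they all stood below, against 18.4%. At an unadjusted p under 0.05, 17 of the 74 were higher and 0 lower with LPS + GSK-J4, and 1958 and 1572 of all 10133 genes were. DESeq2's Wald test called 2 of 79 members higher (Rpl13 and Rpl24) and 0 lower, against 5.34 and 4.66% of the 18016 genes it tested. These 18016 take in genes below the filter of the main test, so their shares do not compare directly with those of edgeR. In a comparison chosen after the data had been seen, without replicate 3 of both groups, 14 of the 74 rose and 0 fell, against 14.1 and 11.4% of all genes.

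Rpl13 encodes a protein of the large subunit and lies on chromosome 8 (chr8:123102350-123105244, plus strand, mm10). Its level was 242, 259 and 289 CPM in the GSK-J4 libraries and 315, 338 and 411 CPM in the LPS + GSK-J4 libraries. The groups did not overlap, and replicate 3 was the highest library of each. Its log2 fold change was 0.43 ± 0.12 (SE), with a 95% interval of 0.17 to 0.69 and an edgeR adjusted p of 0.0195.

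Rpl24, which encodes a large subunit protein at the interface of the subunits, lies on chromosome 16 (chr16:55966275-55971435, plus strand). It measured 141, 142 and 142 CPM with GSK-J4 alone and 172, 192 and 203 CPM with LPS + GSK-J4. The GSK-J4 libraries were almost level, and all LPS + GSK-J4 libraries stood above them. The log2 fold change was 0.42 ± 0.12 (SE; 95% interval 0.17 to 0.67) with an edgeR adjusted p of 0.0151.

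Rps13, a small subunit gene on chromosome 7 (chr7:116331505-116334195, minus strand), measured 152, 145 and 150 CPM with GSK-J4 alone and 172, 202 and 199.6 CPM with LPS + GSK-J4. These groups did not overlap either. Its log2 fold change was 0.36 ± 0.12 (SE; 95% interval 0.11 to 0.61), with an edgeR adjusted p of 0.0344. Copies of parts of these mRNAs exist elsewhere, since 78.8% of the 101-base windows of Rpl13, 75.7% of those of Rpl24 and 77.5% of those of Rps13 occur in a transcript of another gene. Fragments from such windows can be lost in the counting, which makes these counts uncertain, and how many were lost was not tested.

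The 3 calls depended on single libraries. Without GSK-J4 replicate 1, without GSK-J4 replicate 2 or without LPS + GSK-J4 replicate 2, 0 of the 74 members rose, against 11.1, 9.66 and 10.3% of all genes in the same fits. Without GSK-J4 replicate 3 and without LPS + GSK-J4 replicate 1, 5 and 7 members rose, against 11.9 and 12.9% of all genes. Over 15 alternatives the edgeR or DESeq2 adjusted p was 0.000153 to 0.0964 for Rpl13, 0.00067 to 0.0706 for Rpl24 and 0.0036 to 0.149 for Rps13. The log2 fold changes stayed between 0.31 and 0.51 for Rpl13, 0.37 and 0.48 for Rpl24, and 0.31 and 0.43 for Rps13.

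The stalk proteins Rplp0, Rplp1 and Rplp2 form the arm of the large subunit that recruits elongation factors. Rplp0 had one of the highest counts of the family, with 538, 525 and 569 CPM with GSK-J4 alone and 646, 639 and 683 CPM with LPS + GSK-J4. All LPS + GSK-J4 libraries were above all GSK-J4 libraries, yet the log2 fold change of 0.27 ± 0.10 (SE; 95% interval 0.056 to 0.49) had an edgeR adjusted p of 0.0652 and did not pass. Rplp1 measured 318, 327 and 367 CPM with GSK-J4 alone and 369.7, 413 and 450.2 CPM with LPS + GSK-J4, again without overlap, but with the nearest libraries of the groups close together. Its log2 fold change was 0.29 ± 0.11 (SE), with an edgeR adjusted p of 0.0837. Rplp2 measured 199, 212 and 242 CPM with GSK-J4 alone and 237, 241 and 254 CPM with LPS + GSK-J4, and these ranges overlapped (log2 fold change 0.17 ± 0.12, edgeR adjusted p 0.329). Rpsa, the small subunit protein also known as the laminin receptor precursor, measured 405, 393 and 413 CPM with GSK-J4 alone and 438, 459 and 525 CPM with LPS + GSK-J4. It did not pass the test (log2 fold change 0.23 ± 0.11, edgeR adjusted p 0.143).

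Several ribosomal proteins have roles outside the ribosome, and none of the 10 genes listed for such a role passed the test. Of all tested genes 13.7% rose and 9.91% fell, so a count over 10 genes says little. Rpl5 and Rpl11, whose proteins bind MDM2 and so stabilise p53 when ribosome assembly fails, had log2 fold changes of -0.014 ± 0.14 and -0.037 ± 0.11 (SE). Rpl5 was low in replicate 3 of both groups, with 294 and 297 CPM against 242 CPM in replicate 3 of GSK-J4 and 292 and 320.0 CPM against 214 CPM in replicate 3 of LPS + GSK-J4. Rpl11 was even, between 221 and 227 CPM with GSK-J4 alone and between 206 and 227 CPM with LPS + GSK-J4.

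Rpl13a, whose protein leaves the ribosome after interferon-γ to block translation of inflammatory mRNAs in macrophages, measured 292, 281 and 337 CPM with GSK-J4 alone and 283, 326 and 289 CPM with LPS + GSK-J4. The ranges overlapped almost fully, and the log2 fold change was -0.018 ± 0.12 (SE; 95% interval -0.26 to 0.23). Rps3, which also binds the p65 subunit of NF-κB, measured 417, 412 and 409 CPM with GSK-J4 alone and 387, 421 and 361 CPM with LPS + GSK-J4. Its log2 fold change was -0.082 ± 0.11 (SE; 95% interval -0.31 to 0.14).

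Rps6, the substrate of the S6 kinases downstream of mTOR, measured 169, 163 and 174 CPM with GSK-J4 alone and 192, 203 and 179 CPM with LPS + GSK-J4. The groups did not overlap, but the log2 fold change of 0.18 ± 0.11 (SE) had an edgeR adjusted p of 0.268. Rps6 was among the members that rose without replicate 3 of both groups. Rps14 and Rps19, which are lost or mutated in inherited or acquired anaemias, had log2 fold changes of -0.028 ± 0.12 and 0.12 ± 0.11. Rps27a, made as a fusion with ubiquitin, measured 47.4, 48.2 and 40.1 CPM with GSK-J4 alone and 55.5, 53.9 and 42.3 CPM with LPS + GSK-J4 (log2 fold change 0.15 ± 0.16). Rpl22, an RNA-binding protein needed by developing lymphocytes, measured 97.9, 104 and 102 CPM with GSK-J4 alone and 104, 99.8 and 72.7 CPM with LPS + GSK-J4 (log2 fold change -0.13 ± 0.14), and Rpl38, which helps translate Hox mRNAs, had a log2 fold change of 0.020 ± 0.14.

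Levels can be compared between genes only per length, and CPM per kb of the chosen GENCODE transcript was used. Between the highest and the lowest of the 74 genes this level differed 96.0-fold, but the lowest was Rps4l, which is typed as a pseudogene. The next lowest, Rps15a, stood at 13.3 CPM per kb, against 808 for Rps29, the highest. The middle of the family was tight, with quartiles at 189 and 363 and a median of 258 CPM per kb. The highest 5 were Rps29 with 808 ± 58.3 CPM per kb (SD over the 6 libraries of both groups), Rplp1 with 749.9 ± 101, Rps12 with 725 ± 45.4, Rpl41 with 642 ± 90.7 and Rplp2 with 548 ± 49.8. The lowest 5 were Rps27l with 67.8 ± 11.4 CPM per kb, Rps20 with 46.8 ± 7.35, Rpl29 with 29.7 ± 6.74, Rps15a with 13.3 ± 2.13 and Rps4l with 8.41 ± 2.42. Of 73 neighbouring pairs in this order, 70 had overlapping ranges over the 6 libraries, and the separated pairs were Rps24 and Rpl14, Rpl15 and Rpl23a, and Rpl29 and Rps15a.

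**Figure D2:**
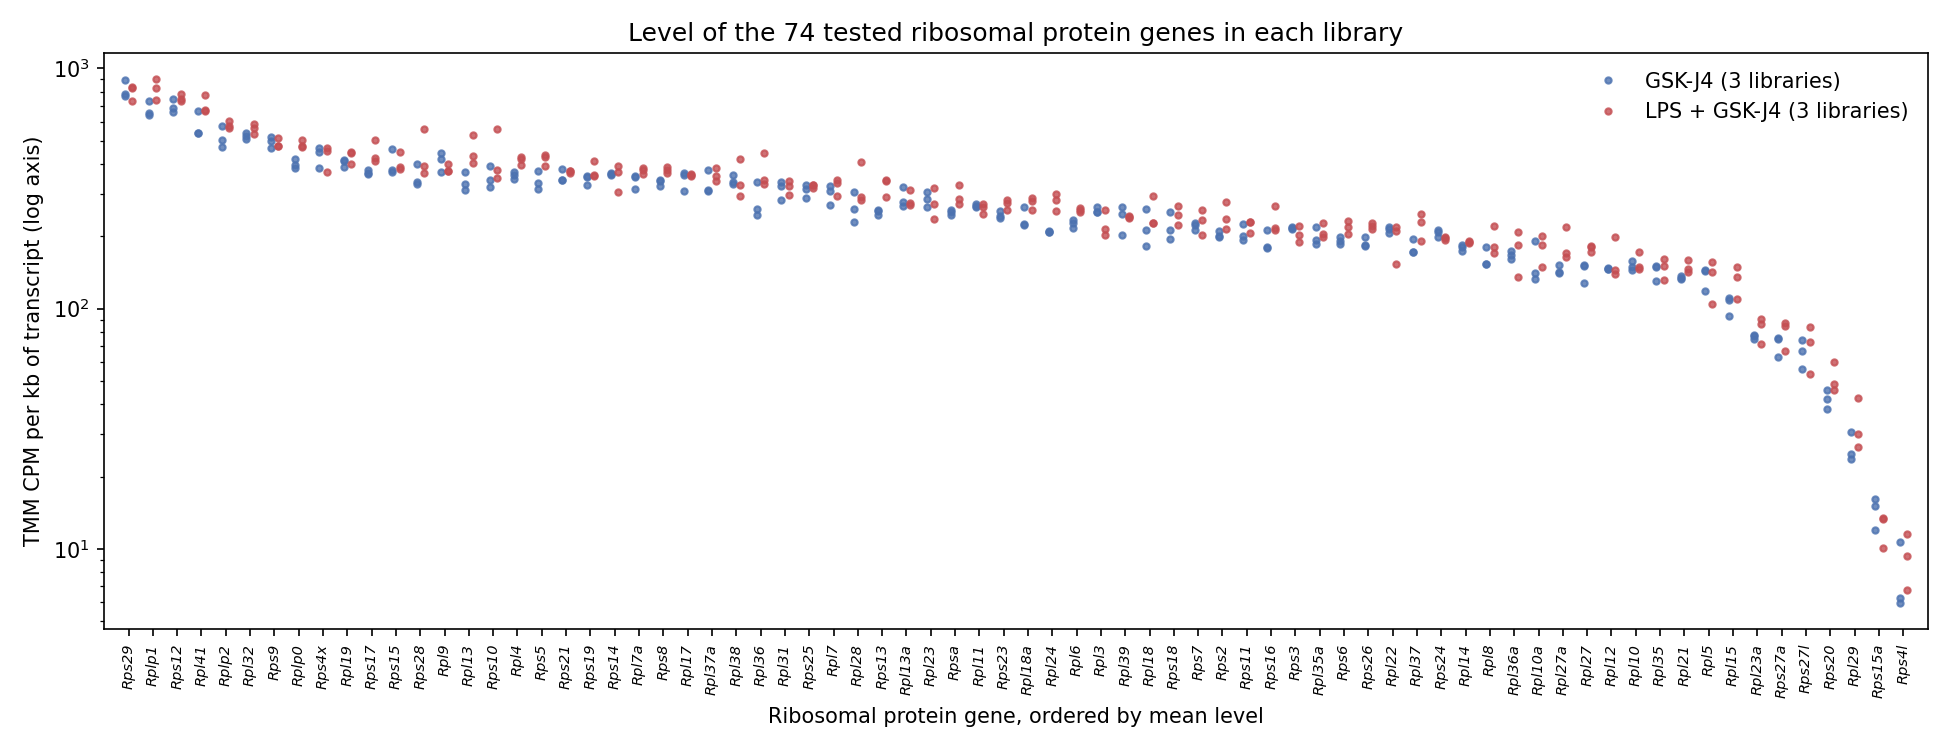
TMM-scaled CPM per kb of transcript (log axis) for the 74 tested genes in order of their mean level, with 1 point per library, blue for GSK-J4 and red for LPS + GSK-J4. Most genes sit between 100 and 1000, the points of both groups lie close together along the order, and levels fall away from Rpl23a to Rps4l.

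The low place of Rps20 rests on a transcript of 3706 bases, of which 357 are coding. By coding length instead of transcript length, a choice made after the data had been seen, 6 of the 10 highest genes were the same, and by the union of all annotated exons 7 were. The order was close in both groups (Pearson's r 0.99 and Spearman's rho 0.97 between the log2 levels per kb of 74 genes without and with LPS). This describes genes that share lengths and mapping, which are not independent replicates.

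The 7 genes below the filter had at most 3 counts in any library. Rpl26 and Rpl10l were at 0 in all 6 libraries. Rpl30 had 1, 2 and 0 counts with GSK-J4 alone and 0, 1 and 0 with LPS + GSK-J4, Rpl34 had 2, 0 and 1 and then 1, 3 and 0, and Rps27 had 1, 2 and 1 and then 0, 0 and 1. Rpl39l (2, 0 and 1, then 0, 0 and 0) and Rpl3l (0, 2 and 1, then 0, 1 and 0) are copies known from testis and from muscle, as Rpl10l is from testis. Rpl26, Rpl30, Rpl34 and Rps27 encode core proteins of the ribosome, so their counts describe the tables and no fold was computed.

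STAR counts a fragment only where it maps to a single place, and ribosomal protein genes have many processed copies in the genome. Of the 81 genes, 31 had over 50% of their 101-base windows, the read length, in a transcript of another gene, and 9 had none. This measure searched annotated transcripts only and left out genes that overlap the member's own locus, so losses to overlapping genes are not covered. Rps27 had 98.4% of its windows shared, chiefly with Rps27rt, a copy that was itself at 0 in every library, whereas Rpl26, Rpl30 and Rpl34 had 35.9, 32.3 and 30.5%. Rpl10 and Rps12 had 91.6 and 88.8% of theirs shared and were nonetheless counted at 115 to 137 CPM and 324 to 387 CPM. Over the 74 tested genes the level per kb and the shared percentage had a Pearson's r of 0.06 (Spearman's rho -0.036), a description that leaves out the 7 genes below the filter. The 7 features of the tables named as ribosomal protein pseudogenes together had 3 to 7 counts in a library.

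Paralogs were far from equal. Rpl3 measured 357, 343 and 342 CPM with GSK-J4 alone and 289, 349 and 275 CPM with LPS + GSK-J4, a log2 fold change of -0.19 ± 0.12 (SE; 95% interval -0.44 to 0.055), while its muscle copy Rpl3l stayed at or under 2 counts. Rpl39 measured between 124 and 162 CPM with GSK-J4 alone and between 145 and 149 CPM with LPS + GSK-J4 (log2 fold change 0.011 ± 0.13), against at most 2 counts for Rpl39l. Rps4x on the X chromosome had 439, 454 and 376 CPM with GSK-J4 alone and 453, 441 and 362 CPM with LPS + GSK-J4. Rps4l, typed as a pseudogene, had 4.69, 4.91 and 8.39 CPM and then 7.38, 9.11 and 5.34 CPM. Neither passed the test, with log2 fold changes of -0.015 ± 0.12 and 0.34 ± 0.33. Rps27l, a copy of Rps27 that p53 induces, had no shared window and was counted at 28.1 to 37.1 CPM with GSK-J4 alone and 26.7 to 41.8 CPM with LPS + GSK-J4.

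Seen as a share of the RNA, the family gave opposite pictures by the denominator. Outside Rn45s, Mir6236 and Lars2, features treated here as ribosomal RNA, which was not tested, the 81 genes held 2.83, 2.79 and 2.88% of the counts with GSK-J4 alone and 2.96, 3.12 and 3.06% in LPS + GSK-J4. These groups did not overlap, and the ratio of their means was 1.08. As a share of all counts on genes, the same libraries gave 1.99, 1.96 and 1.66% and then 1.34, 1.42 and 1.42%, a ratio of 0.744, while Rn45s moved as given above. The ratio of large to small subunit counts was 1.42 ± 0.0031 (SD, n = 3) with GSK-J4 alone and 1.45 ± 0.016 (SD, n = 3) with LPS + GSK-J4, without overlap and with a ratio of 1.02 between the groups.

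**Figure D3:**
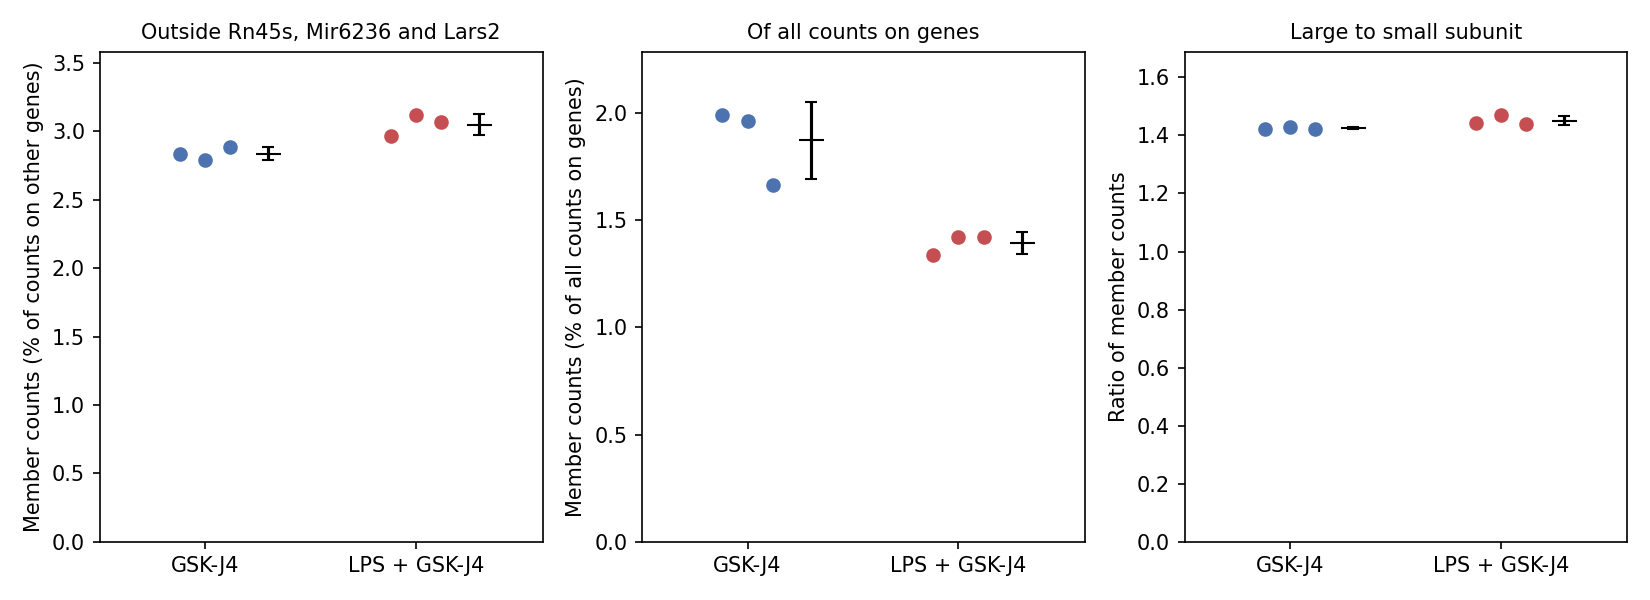
Counts of the 81 genes as a percentage of the counts outside Rn45s, Mir6236 and Lars2 (left) and of all counts on genes (middle), and the ratio of large to small subunit counts (right), with 1 point per library and the mean ± SD in black. LPS + GSK-J4 lies above GSK-J4 on the left (2.96 to 3.12 against 2.79 to 2.88%) and below it in the middle (1.34 to 1.42 against 1.66 to 1.99%).

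Replicate 3 of both groups stood apart within the family. With GSK-J4 alone, 31 of the 37 genes with the higher GC content were above the mean of replicates 1 and 2 in replicate 3, against 16 of the 37 with the lower GC content, and in LPS + GSK-J4 the counts were 24 and 20. Over the 74 genes the log2 difference of replicate 3 and the GC content of the mRNA had a Pearson's r of 0.63 (Spearman's rho 0.60) with GSK-J4 alone and 0.36 (0.35) with LPS + GSK-J4. For the 9805 tested genes with a GC value, r was 0.50 and 0.55. These genes share their libraries, and the relation is a description. The log2 fold change between the groups and GC content had an r of 0.37 (rho 0.35) over the members and 0.042 (0.071) over all genes, and the part of GC content in the fold changes was not tested.

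**Figure D4:**
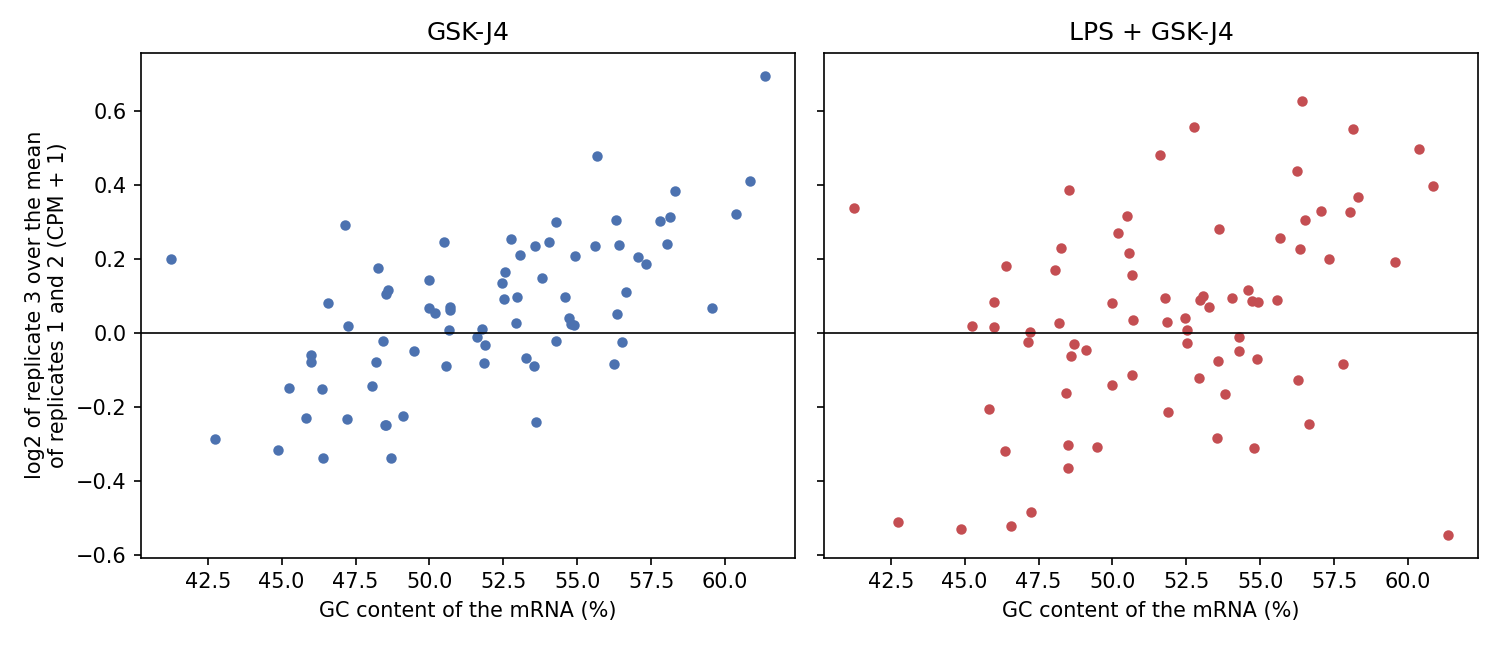
Log2 ratio of replicate 3 to the mean of replicates 1 and 2 (with 1 CPM added) against the GC content of the mRNA for the 74 tested genes, 1 point per gene, in GSK-J4 (left) and LPS + GSK-J4 (right). Points rise with GC content in both, with an r of 0.63 on the left and 0.36 on the right.

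Among ribosomal protein genes outside the symbol rule, 1 of 7 tested rose and 0 fell, against 13.7 and 9.91% of all tested genes. Rpl36al, a copy of Rpl36a, measured 32.6 ± 0.88 CPM (SD, n = 3) with GSK-J4 alone and 49.9 ± 2.78 CPM with LPS + GSK-J4, a log2 fold change of 0.61 ± 0.15 (SE, edgeR adjusted p 0.00617), while Rpl36a had a log2 fold change of 0.079 ± 0.15. Gnb2l1, the symbol used here for the scaffold RACK1, had a log2 fold change of 0.15 ± 0.11, and Fau, made as a fusion with a ubiquitin-like protein, had 0.071 ± 0.14. Rps3a1 had -0.26 ± 0.14. The median of the 7 was 0.11.

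Elongation factors carry tRNA and move the ribosome along the mRNA. The median log2 fold change of 7 tested was 0.23, and 1 rose and 0 fell, against 13.7 and 9.91% of all tested genes. That gene was Eif5a, which carries the modified residue hypusine, at 156 ± 9.52 CPM with GSK-J4 alone and 239.6 ± 20.1 CPM with LPS + GSK-J4 (log2 fold change 0.62 ± 0.12). Eef1a1 and Eef2, the most abundant of them, had log2 fold changes of 0.044 ± 0.10 and 0.087 ± 0.11.

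Of 29 tested initiation factors, 4 rose and 0 fell, and their median log2 fold change was 0.18. DESeq2 called 2 of the 29 higher and 0 lower. Pabpc1, which binds the poly(A) tail and has a pyrimidine tract of its own, rose by 0.47 ± 0.11 (SE), the cap-binding protein Eif4e by 0.57 ± 0.16, Eif1ax by 0.75 ± 0.24 and Eif1 by 0.39 ± 0.11. Of 7 other mRNAs known for a terminal pyrimidine tract, 1 rose and 0 fell, with a median of 0.082. It was Vim, an intermediate filament gene, from 989 ± 68.9 to 1981 ± 347 CPM (log2 fold change 1.00 ± 0.12), whereas Tpt1 and Naca had -0.063 ± 0.10 and 0.011 ± 0.13. None of 9 genes of growth signalling to the ribosome rose or fell in edgeR (unadjusted p under 0.05 in 1) or in DESeq2, among them Mtor (0.16 ± 0.22), Rps6kb1 (-0.11 ± 0.19) and Larp1 (0.36 ± 0.13, edgeR adjusted p 0.061). Of all tested genes, 13.7% rose and 9.91% fell.

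Mitochondrial ribosomal proteins are encoded in the nucleus and build the separate ribosome of the mitochondrion. Of 77 such genes, 74 were tested, with a median log2 fold change of 0.041. Among these 74, 2 rose and 0 fell, against 13.7 and 9.91% of all tested genes. DESeq2 called 0 of the 77 in either direction, against 5.34 and 4.66% of the genes it tested. Mrps6 measured 7.39 ± 0.96 CPM (SD, n = 3) with GSK-J4 alone and 14.6 ± 1.62 CPM with LPS + GSK-J4, and Mrps26 7.99 ± 0.71 and 14.0 ± 0.66 CPM, that is log2 fold changes of 0.96 ± 0.24 and 0.79 ± 0.23. The median level of the tested genes was 9.82 CPM in GSK-J4 against 182 CPM for the cytosolic genes. At that depth the 95% interval lay between -0.5 and 0.5 in 5 of 74, so both lists cannot be held to the same bound.

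Marker levels of other cell types moved between the groups. Of all tested genes, 13.7% rose and 9.91% fell. Of 7 astrocyte markers tested, 3 rose (Gfap, Gja1 and Aqp4) and 0 fell. Aldh1l1 had a mean of 3.26 CPM with GSK-J4 alone and 2.92 CPM with LPS + GSK-J4, so these markers did not all move together. All 8 astrocyte markers summed to 53.6 to 59.1 CPM with GSK-J4 alone and 130.1 to 158 CPM with LPS + GSK-J4. Among oligodendrocyte lineage markers 4 of 5 tested rose, and all 7 summed to 178 to 204 and 345 to 391 CPM. Of 5 neuron markers, summing to 14.7 to 19.0 and 32.3 to 40.4 CPM, only Tubb3 and Map2 could be tested, and both rose. Snap25, Rbfox3 and Syt1 lay near the level of 3 counts. Their group means went from 0.078 to 1.06, from 0.52 to 0.26 and from 0.59 to 0.14 CPM with LPS + GSK-J4, so the neuron markers did not move together. The 5 mesenchymal markers did not pass the test, at 71.5 to 261 and 131 to 391 CPM. Of the 10 microglia markers, 3 fell (Csf1r, Cx3cr1 and Trem2, by 0.46, 0.48 and 0.45 on the log2 scale) and 0 rose, while DESeq2 called 5 lower. None of the markers was at 0 in all libraries, and the part of the other cells in the levels of ribosomal protein genes was not tested.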

How the data were processed

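RNA from PM was depleted of rRNA, made into directional libraries and sequenced from both ends. Per the labels and the study's methods, the authors trimmed reads with Trimmomatic 0.33, aligned them to mm10 with STAR 2.5.1 and deposited, for each library, raw counts of fragments per gene. The deposited counts are not normalized and leave out fragments that map to several places or overlap several genes. The column for the reverse strand was used, and its opposite served for checks. The annotation used for counting is not given in the sources used here.

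Counts were filtered with filterByExpr (minimum count 10, minimum total 15), scaled with TMM and tested with the robust quasi-likelihood test of edgeR 4.0.16 in R 4.3.3, with Benjamini-Hochberg adjustment over 10133 genes and no covariates. Intervals are at 95%, SD is over 3 libraries, and the smallest p that an exact permutation of 3 libraries against 3 allows is 0.1. The study's methods call the replicates biological, while the labels do not name separate cultures, so p-values measure the spread between these libraries. Depth, 2597505 to 3472716 counts on genes, limits low genes.

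Positions, lengths and GC content are from GENCODE M21, and start sequences from RefSeq (GRCm38.p6). Tables were made in Python 3.11.15. Alternatives were unstranded counts, DESeq2 size factors, DESeq2 1.42.0, other filters, a replicate block, each library left out, removal of Rn45s, Mir6236 and Lars2, and TMM without the members. The members, lists and tests were chosen with earlier results of these data known. Named genes were the 5 highest and 5 lowest per length, up to 8 called in each direction, the stalk genes and Rpsa, 10 genes with a second role, 5 paralog pairs and those below the filter. Rps24 and other genes beyond this rule were named after their values were seen, as were examples from the other lists. The values of 1 gene of the other lists are not reported here.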

Additional observations from a re-analysis of the deposited data

How the results depend on the processing

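The medians of the members stayed above 0 in all 16 alternatives, with 54 to 64 of 74 log2 fold changes above 0. They were 0.075 with DESeq2's Wald test and 0.069 without a filter on low counts, where 79 members entered and the median of all genes was 0.13 and 0.12. Over the genes of the main test the latter medians were -0.049 and -0.055, beside -0.048 with DESeq2 size factors. The median of mitochondrial ribosomal protein genes was -0.0068 with DESeq2 size factors, -0.0031 with DESeq2's Wald test and -0.0042 without a filter. No member fell in any alternative.

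Members that rose numbered 0 to 7 of 74 with 1 library left out, where at least 9.66% of all genes rose in each fit. Without replicate 3 of both groups they numbered 14 of 74, against 14.1% of all genes. When the adjusted p had to be 0.01 or less, 0 members rose. The share of all genes at this limit alone was not counted, so this 0 cannot be set against it. For the other translation lists, 4 to 9 rose and 0 to 1 fell with 1 library left out, against 7 and 0, while 1 fell with DESeq2 size factors and without TMM after removal of Rn45s, Mir6236 and Lars2, and 2 without a filter. With the replicate number as a block, 21 of the 74 members rose and 0 fell, against 17.3 and 14.8% of all genes, so that their share of higher calls lay above that of all genes and not below it as in the test without the block, and 15 genes of the other lists rose and 4 fell. Deviations of same-numbered libraries correlated at -0.0087, 0.12 and 0.31, so the numbers were not taken to pair the libraries. Of the GSK-J4 libraries, replicates 1 and 2 both correlated better with another number than with their own. Replicate 3 correlated best with its own number, at 0.31, against -0.21 and -0.18 with LPS + GSK-J4 replicates 1 and 2. A shift shared by replicate 3 of both groups was not tested, and the test without the block takes no account of it.

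The ratio of member shares was 0.744 with all counts as the denominator, and 6 of the 10 highest levels per length stayed with coding length. Of the named genes, signs changed for 11 with a log2 fold change between -0.13 and 0.080. Rpl38 had -0.028 with DESeq2 size factors and with DESeq2, -0.034 without a filter and -0.011 without TMM, Rpl10 -0.00070, -0.0011 and -0.0071 in the first 3, and Rpl39 -0.036, -0.037, -0.043 and -0.019, and -0.0034 with unstranded counts. With 1 library left out, the log2 fold change ran from -0.077 to 0.043 for Rps29, -0.069 to 0.23 for Rps27l, -0.14 to 0.14 for Rpl5, -0.069 to 0.0020 for Rpl11, -0.084 to 0.064 for Rpl13a, -0.10 to 0.067 for Rps14, -0.23 to 0.0094 for Rpl22, -0.14 to 0.13 for Rpl38, -0.030 to 0.093 for Rpl10, -0.089 to 0.089 for Rpl39 and -0.091 to 0.078 for Rps4x. The causes were not tested. Of 435 values over 29 named genes and 15 alternatives, 384 kept their direction and side of the threshold. Depth limits Rps4l, Rps15a and Rpl29, with 13 to 65 counts in a library.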
